A study of Mus musculus with 95 samples.

Results

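The Irf and Stat proteins are the transcription factors through which cells make and answer interferon, and the 6 mouse genes described here are Irf1, Irf5, Irf7, Irf8, Irf9 and Stat2. They were measured in whole kidneys of SNF1 mice, with and without pristane. The probe sets were those whose only gene symbol in the annotation of the array is one of the 6, which gave 8 probe sets of 45037 tested and 6 genes of 17097 with a symbol of their own. Irf8 and Stat2 had 2 probe sets each, and each of the other 4 genes had 1.

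Interferons alpha and beta bind a shared receptor on nearly every cell, and the Janus kinases on that receptor phosphorylate Stat2, which joins Irf9 in the complex ISGF3. ISGF3 binds the interferon-stimulated response element before genes such as Irf7, and Irf7 in turn raises transcription of the interferon genes themselves. Interferon gamma acts at the gamma-activated sequence and induces Irf1, while Irf5 lies downstream of Toll-like receptors and Irf8 is made mainly by myeloid cells, dendritic cells and B cells. In the kidney, genes induced by interferon are a known feature of lupus nephritis.

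All mice were female SNF1, the F1 hybrid of SWR and NZB, a strain that develops lupus nephritis spontaneously. Pristane, a hydrocarbon oil, was injected into the peritoneum at 9 weeks of age, and the controls were untreated mice of the same age, not mice injected with a vehicle. Kidneys were snap-frozen, and each numbered array was taken to hold kidney RNA of 1 mouse. Whether 1 kidney or both went into an array is not stated. In weeks after injection, the 51 untreated mice comprised 7 of week 0, 10 each of weeks 2, 8 and 12, 9 of week 4 and 5 of week 14. The 44 pristane mice comprised 9 each of weeks 2 and 14, 10 of week 4 and 8 each of weeks 8 and 12. The study ran the time course in 2 independent experiments, and which mouse belonged to which is not given in the sources used here. Values are on the log2 scale after RMA, the authors' normalization, and a change is the pristane mean minus the untreated mean of the same week, so that 1 is a doubling. A change passed the test when its Benjamini-Hochberg adjusted p from limma, taken over all 45037 probe sets, was under 0.05.

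Some mice stood apart and touch the results below. Untreated mouse 10 of week 12 had a mean of 7.83 over 12 macrophage and monocyte markers, against 4.34 to 5.97 in the other 9 mice, and a mean of 9.94 over 13 targets of interferon gamma and Irf1, against 6.14 to 7.54. Untreated mice 3 and 9 of week 8 had macrophage means of 6.51 and 6.13, against 4.48 to 5.33 in the other 8. Pristane mice 1 and 2 of week 14 lay on the low side, at 6.33 and 6.11 against 7.45 to 7.93 in the other 7. At week 2, markers of the adrenal gland averaged 7.05 (3.76 to 8.28) in pristane mice and 4.90 (3.66 to 7.92) in untreated mice. The 7 kidney markers measured were high in every group, with a mean of 9.59 in untreated and 9.20 in pristane mice at week 14.

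The stretches that bear on these genes are the 250 bases before a transcription start, where the elements read by the Irf and Stat proteins can lie. Sequences and starts are those of RefSeq on the build GRCm38.p6, for which all 6 genes had an entry. The first window of Irf1, Irf8, Irf9 and Stat2 ends at the outermost start of the gene, whereas the single window of Irf7 belongs to a start 75 bases inside the gene and that of Irf5 to a start 495 bases inside it, so the 250 bases before the outermost starts of these 2 genes were searched in part for Irf7 and not searched for Irf5. On both strands 2 patterns of letters were searched, the interferon-stimulated response element as GAAA, any 2 bases and GAAA again, and the gamma-activated sequence as TTCNNNGAA, which do not overlap in any match below. The first was found before 936 of 27025 genes (3.46%) and the second before 2197 (8.13%). The 3 genes with a match are shown first and then Irf7 and Irf9, the genes with the largest changes in pristane mice, whose windows shown held no match. Each line runs 5′ to 3′ on the strand of the gene, and capitals mark the matched letters.
Irf1, chr11:53769764-53770013, + strand: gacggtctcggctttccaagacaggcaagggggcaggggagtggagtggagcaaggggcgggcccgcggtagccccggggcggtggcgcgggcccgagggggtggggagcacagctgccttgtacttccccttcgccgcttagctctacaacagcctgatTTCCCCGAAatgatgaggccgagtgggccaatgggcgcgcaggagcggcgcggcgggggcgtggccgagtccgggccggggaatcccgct
Irf8, chr8:120736108-120736357, + strand: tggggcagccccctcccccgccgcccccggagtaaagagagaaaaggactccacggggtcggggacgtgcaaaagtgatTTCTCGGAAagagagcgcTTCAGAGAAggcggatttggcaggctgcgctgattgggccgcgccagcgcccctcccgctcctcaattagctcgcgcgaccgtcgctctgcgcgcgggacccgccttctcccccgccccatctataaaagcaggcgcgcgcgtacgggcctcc
Stat2, chr10:128270248-128270497, + strand: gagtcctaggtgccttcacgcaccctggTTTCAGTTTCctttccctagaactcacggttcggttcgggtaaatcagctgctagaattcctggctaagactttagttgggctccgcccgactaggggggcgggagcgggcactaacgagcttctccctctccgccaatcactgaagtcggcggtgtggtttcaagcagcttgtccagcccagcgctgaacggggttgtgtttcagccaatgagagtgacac
Irf7, chr7:141266425-141266674, - strand: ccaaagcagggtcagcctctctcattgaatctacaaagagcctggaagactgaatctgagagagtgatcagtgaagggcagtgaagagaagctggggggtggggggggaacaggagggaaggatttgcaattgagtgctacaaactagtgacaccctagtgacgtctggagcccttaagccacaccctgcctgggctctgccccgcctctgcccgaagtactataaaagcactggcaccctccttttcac
Irf9, chr14:55603735-55603984, + strand: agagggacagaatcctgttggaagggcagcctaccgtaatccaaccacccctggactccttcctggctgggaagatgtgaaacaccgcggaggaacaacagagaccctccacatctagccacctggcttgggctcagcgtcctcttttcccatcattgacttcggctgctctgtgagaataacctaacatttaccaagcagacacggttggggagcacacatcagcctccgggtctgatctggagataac
In Irf1 the letters TTCCCCGAA lay 90 to 82 bases before the start. Irf8 held 2 such matches, TTCTCGGAA from 171 to 163 and TTCAGAGAA from 153 to 145 bases before it. In Stat2 the letters TTTCAGTTTC, which are the response element read on the other strand, lay 222 to 213 bases before the start. The single window of Irf5 and the second windows listed for Irf1, Irf8 and Irf9, which all belong to starts inside the genes, held neither pattern. A match is a description of these letters and not a site of binding, and a window without one says only that the letters are not in it.

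Irf7, which drives transcription of the interferon alpha and beta genes and is itself induced by ISGF3, was the member that moved most and at the earliest time. Its log2 level in untreated mice ran from 3.78 to 5.17 over all 51 mice and 6 ages, and 39 of the 44 pristane mice lay above every one of them. At week 2 the untreated mice spanned 4.04 to 4.38 (median 4.15) and the pristane mice 5.12 to 6.34 (median 5.78). The groups did not overlap, and the log2 change of 1.56 (SE 0.142, adjusted p = 1.13e-05) placed Irf7 11th by p among all probe sets. How many of all probe sets did not overlap between groups was not counted, here or for the ranges below. Of all probe sets, 0.231% rose at week 2, against 2 of the 8 described here, Irf7 and Irf9.

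At week 4 the untreated range of Irf7 was 3.78 to 4.59 (median 4.08) and the pristane range 4.28 to 6.23 (median 5.44). Of 10 pristane mice, 1 lay within the untreated range and 9 above it, and the log2 change was 1.29 (SE 0.199, adjusted p = 0.0105). At week 8 the levels were 4.08 to 4.56 (median 4.27) and 4.59 to 6.85 (median 6.01), a change of 1.72 (SE 0.217, adjusted p = 0.00448). All 8 pristane mice were above all 10 untreated mice at that week, though mouse 1, at 4.59, lay only just above them and its nearest neighbour was at 5.87. The background share of probe sets that rose was 0.124% at week 4, where 2 of the 8 rose, and 0.0866% at week 8, where Irf7 alone rose.

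At week 12 the log2 level of Irf7 was 3.78 to 5.17 (median 4.38) in untreated and 5.09 to 7.75 (median 5.91) in pristane mice. Its change of 1.77 (SE 0.292) was as large as at week 8, yet it missed the threshold (adjusted p = 0.0530). None of the 8 probe sets passed, with 0.0244% of all probe sets risen. An unadjusted p under 0.05 was reached by 3 of the 8, and by 2781 of all 45037 probe sets in either direction. The untreated mouse at 5.17 was mouse 10. Without it the change was 1.86 (SE 0.291, adjusted p = 0.00392) and 4 probe sets rose, those of Irf1, Irf7, Irf9 and Stat2 1421911_PM_at, against a background of 1.33%. Mouse 10 was the highest untreated mouse of week 12 on each of the 8 probe sets, so leaving it out raises each change by itself. The week 12 values without this mouse are given with each member below.

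At week 14 the 5 untreated mice had Irf7 levels of 4.43, 4.19, 4.14, 3.87 and 4.24, and the 9 pristane mice spanned 6.39 to 9.38 (median 7.97). The lowest pristane mouse was above all 51 untreated mice of the study. The log2 change was 3.72 (SE 0.402, adjusted p = 0.00124), and the test of the difference between weeks put it 2.15 above that of week 2 (SE 0.379, adjusted p = 6.41e-04). At week 14, 5 of the 8 probe sets rose, those of Irf1, Irf7, Irf9, Irf8 1416714_PM_at and Stat2 1421911_PM_at, while 4.57% of all probe sets rose. In whole kidney RNA, more cells of a type and more RNA per cell cannot be told apart.

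**Figure D1:**
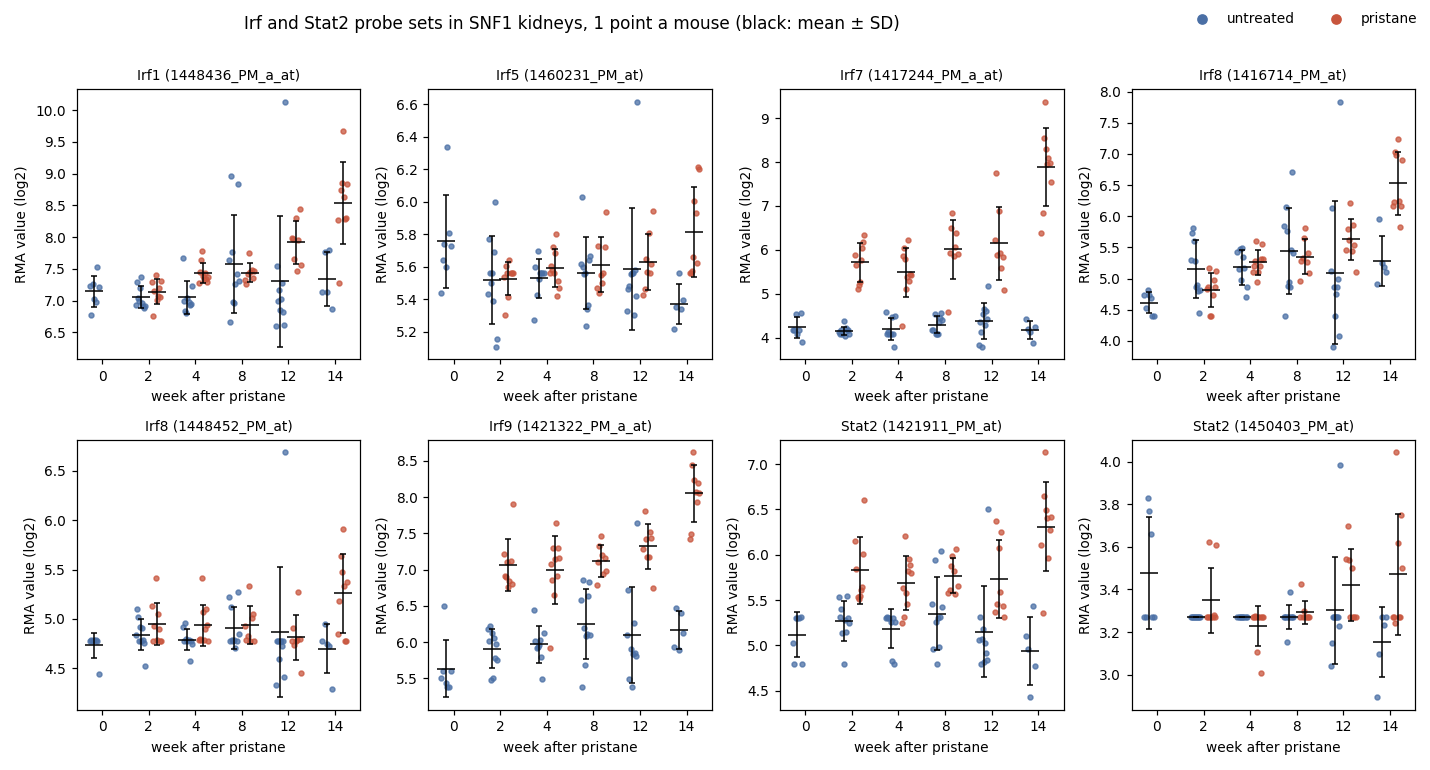
Log2 RMA value of the 8 probe sets (1 panel each, each with its own vertical axis) against week after pristane, with 1 point for each untreated (blue) or pristane (red) mouse and black bars for mean ± SD. Irf7 and Irf9 are higher in most pristane mice from week 2 onwards, Irf1 and Irf8 separate most at week 14, and 1 untreated mouse at week 12 lies far above its group for Irf1 (10.13), Irf5 and Irf8.

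Irf9, the DNA-binding subunit of ISGF3, moved from the first time point too. Its log2 level at week 2 was 5.47 to 6.23 (median 5.999) in untreated and 6.76 to 7.91 (median 6.92) in pristane mice, again without overlap, and the change was 1.15 (SE 0.141, adjusted p = 3.61e-04). At week 4 it was 5.50 to 6.44 (median 5.95) against 5.92 to 7.65 (median 7.11), a change of 1.03 (SE 0.173, adjusted p = 0.0195). Of 10 pristane mice, 9 lay above the untreated mice there, and Irf9 passed in 16 of the 19 fits that left out 1 mouse each (all but those without untreated mouse 3, 4 or 8, with adjusted p from 1.53e-04 to 0.0534). Both calls at week 2, for Irf7 and Irf9, remained when the mean of the adrenal markers was added as a covariate.

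At week 8 Irf9 levels were 5.39 to 6.85 (median 6.16) in untreated and 6.79 to 7.47 (median 7.13) in pristane mice. Of 8 pristane mice, 7 were above all untreated mice, and the change of 0.87 (SE 0.182) did not pass (adjusted p = 0.144). The top untreated values, 6.85 and 6.83, were those of mice 3 and 9. Without both, Irf9 had a change of 1.02 (SE 0.163, adjusted p = 0.0216) and passed beside Irf7, with 0.0933% of all probe sets risen. Leaving them out was chosen after the data were seen, and taking away the top untreated values raises the change by itself. At week 12 the change was 1.22 (SE 0.250, adjusted p = 0.162), and 1 of 8 pristane mice was above the untreated range of 5.39 to 7.64, whose top was mouse 10. Without that mouse it was 1.39 (SE 0.172, adjusted p = 7.71e-04).

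At week 14 the untreated Irf9 levels were 5.94, 6.46, 5.89, 6.40 and 6.12, and the pristane mice spanned 7.43 to 8.62 (median 8.07). All 9 lay above all 5. The change was 1.89 (SE 0.195, adjusted p = 0.00110), and it was 0.73 larger than at week 2 (SE 0.236, adjusted p = 0.0396). That difference between weeks passed in 13 of the 33 fits that left out 1 mouse each (adjusted p from 0.01002 to 0.0889).

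Stat2, the partner of Irf9 in ISGF3, had 2 probe sets that read it unequally. On 1421911_PM_at the log2 level at week 2 was 4.79 to 5.54 (median 5.29) in untreated and 5.51 to 6.60 (median 5.64) in pristane mice, with 7 of 9 above the untreated range and a change of 0.56 (SE 0.134, adjusted p = 0.133). At week 4 the ranges were 4.79 to 5.31 (median 5.30) and 5.25 to 6.20 (median 5.72), with 9 of 10 above and a change of 0.50 (SE 0.119, adjusted p = 0.157). Its changes at weeks 8 and 12 were 0.42 (SE 0.153, adjusted p = 1) and 0.58 (SE 0.220, adjusted p = 0.716). None of the 4 passed. Without untreated mouse 10, the week 12 change was 0.73 (SE 0.152, adjusted p = 0.0244).

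At week 14 the 5 untreated mice had Stat2 levels of 5.11, 4.96, 4.42, 5.44 and 4.77 on this probe set, and the pristane mice 5.36 to 7.13 (median 6.41). Of 9 pristane mice, 8 were above the untreated range, and the change was 1.37 (SE 0.249, adjusted p = 0.0117). It exceeded the change at week 2 by 0.82 (SE 0.265, adjusted p = 0.0411), which passed in 12 of 33 fits that left out a mouse (adjusted p from 0.00517 to 0.111). The other probe set, 1450403_PM_at, read the value 3.27 on 65 of 95 arrays and took 31 different values in all. It passed at no week, with a change of 0.32 (SE 0.137, adjusted p = 0.175) at week 14, and over the 95 arrays it correlated with the first at r = 0.414.

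Irf1, which interferon gamma induces and which activates guanylate-binding protein and antigen-presentation genes, did not pass before week 14. Its log2 level at week 2 was 6.89 to 7.38 (median 6.98) in untreated and 6.76 to 7.41 (median 7.15) in pristane mice, so the groups overlapped almost fully, with a change of 0.09 (SE 0.0832, adjusted p = 0.846). At week 4 the change was 0.38 (SE 0.0972, adjusted p = 0.231), and 1 of 10 pristane mice exceeded the untreated range of 6.81 to 7.67. At week 8 it was -0.14 (SE 0.273, adjusted p = 1). The untreated spread was wide there: mice 3 and 9 had Irf1 at 8.97 and 8.83 against 6.67 to 7.77 in the other 8, and without both the change was 0.19 (SE 0.138, adjusted p = 0.965).

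At week 12 Irf1 was 6.60 to 10.13 (median 7.01) in untreated and 7.47 to 8.45 (median 7.96) in pristane mice. Its change of 0.61 (SE 0.377) did not pass (adjusted p = 0.827). The highest Irf1 level of the whole study, 10.13, was that of untreated mouse 10, and no other untreated mouse of week 12 was above 7.55. Without it the change was 0.93 (SE 0.155, adjusted p = 0.00629).

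At week 14 the untreated levels of Irf1 were 7.14, 7.77, 7.14, 7.80 and 6.86, and the pristane mice spanned 7.28 to 9.67 (median 8.64). Of the 9, 8 were above the untreated range, and pristane mouse 2, at 7.28, was within it. The change was 1.20 (SE 0.316, adjusted p = 0.0393). It passed in 4 of the 14 fits that left out a mouse, with adjusted p from 0.00506 to 0.0974. The difference from week 2, 1.11 (SE 0.284, adjusted p = 0.00998), passed in 33 of 33.

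Untreated and pristane mice overlapped more in Irf1 than in Irf7. For Irf1 and for Irf8, none of the 44 pristane mice exceeded every untreated mouse, against 39 for Irf7, 10 for Irf9 and 3 for Stat2. Such a count rests on the highest untreated mouse, which for Irf1 and Irf8 was mouse 10 of week 12. In all, 3 untreated mice had more Irf1 than the median pristane mouse of week 14, and none had as much Irf7 as the lowest one. Untreated mouse 10 of week 12 was the highest untreated mouse for both genes, with Irf1 at 10.13 and Irf7 at 5.17, while the other 9 untreated mice ranged up to 7.55 and to 4.65. Untreated mice 3 and 9 of week 8 had Irf7 at 4.54 and 4.56, just above the 4.08 to 4.44 of the other 8, beside the high Irf1 levels given above. Their means over 13 targets of interferon gamma and Irf1 were 8.68 and 8.44, against 6.30 to 7.80, and over 15 type I interferon targets 5.90 and 5.56, against 4.68 to 5.19.

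**Figure D2:**
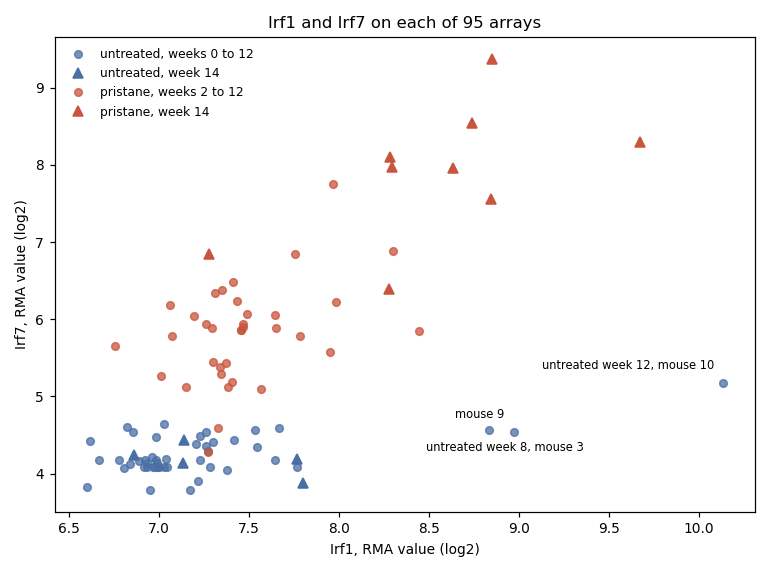
Log2 RMA value of Irf7 (vertical) against Irf1 (horizontal) on each of 95 arrays, with untreated mice in blue, pristane mice in red and week 14 as triangles. Most pristane mice of earlier weeks lie above the untreated mice in Irf7 over the same range of Irf1, and 3 named untreated mice lie far to the right at Irf7 values of 4.54 to 5.17.

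Irf8, a factor of the myeloid and B-cell lineages, rose at week 14 and passed at no earlier week. On 1416714_PM_at its log2 level at week 2 was 4.44 to 5.81 (median 5.09) in untreated and 4.40 to 5.16 (median 4.86) in pristane mice, a change of -0.34 (SE 0.173, adjusted p = 0.748). The changes at weeks 4, 8 and 12 were 0.09 (SE 0.110, adjusted p = 0.941), -0.09 (SE 0.258, adjusted p = 1) and 0.54 (SE 0.413, adjusted p = 0.827). Untreated mouse 10 of week 12 had 7.84, above all 44 pristane mice, and without it the week 12 change was 0.84 (adjusted p = 0.148).

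At week 14 the untreated mice had Irf8 levels of 4.92, 5.96, 5.25, 5.18 and 5.10, and the pristane mice 5.82 to 7.23 (median 6.24). Of 9 pristane mice, 8 were above the untreated mice, and the change was 1.25 (SE 0.258, adjusted p = 0.0184). It passed in all fits that left out a mouse but those without untreated mouse 3 or 4 (highest adjusted p 0.0543). It exceeded that at week 2 by 1.58 (SE 0.302, adjusted p = 0.00129). The second probe set, 1448452_PM_at, had changes of 0.11, 0.14, 0.03 and -0.05 at weeks 2, 4, 8 and 12 and of 0.56 (SE 0.194, adjusted p = 0.0921) at week 14. It passed at no week, and 6 of 9 pristane mice were above the untreated mice at week 14. The 2 Irf8 probe sets correlated at r = 0.683 over the 95 arrays.

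Irf5, which acts downstream of Toll-like receptors in myeloid and B cells, passed at no week. Its log2 changes were 0.01, 0.06, 0.05 and 0.04 at weeks 2, 4, 8 and 12, all with adjusted p of 0.929 or above. At week 14 the untreated levels were 5.22, 5.35, 5.56, 5.34 and 5.40 and the pristane levels 5.56 to 6.21 (median 5.66). Of 9 pristane mice, 7 were above the untreated mice, and the change was 0.44 (SE 0.129, adjusted p = 0.0544). It passed in 2 of 14 fits without a mouse, and without both pristane mice 1 and 2 it was 0.51 (SE 0.129, adjusted p = 0.0153), with 8.4% of all probe sets then risen. These 2 mice, left out together after the data were seen, had the lowest Irf5 levels of the 9, at 5.56 each. Taking them out raises the change by itself, so this is no further test of Irf5.

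**Figure D3:**
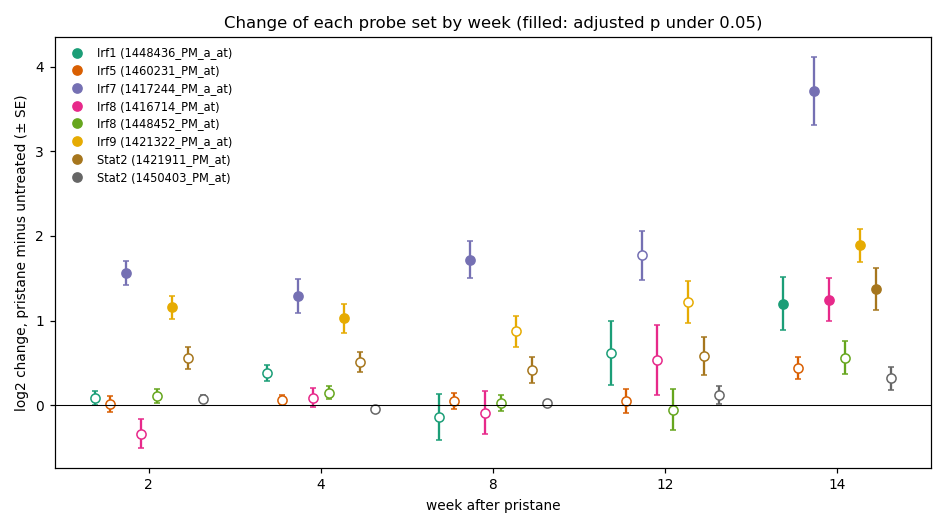
Log2 change (pristane minus untreated, ± SE) of each probe set at weeks 2, 4, 8, 12 and 14, with filled points for an adjusted p under 0.05. Irf7 is highest at each week, from 1.29 at week 4 to 3.72 at week 14, and no point is filled at week 12.

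The median changes over the 8 probe sets at weeks 2, 4, 8, 12 and 14 were 0.10, 0.26, 0.04, 0.56 and 1.22, beside a median of 0.00 over all probe sets in each. In the test of the effect at week 14 against that at week 2, 5 of the 8 were larger at week 14, with 5.77% of all probe sets. Against week 12, none of the 8 passed, nor did any probe set of the array (background 0%), although 2 of the 8 and 7136 of all probe sets had an unadjusted p under 0.05. The largest of these differences was that of Irf7, 1.95 (SE 0.489, adjusted p = 0.0716).

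Ordered by group mean, Irf7 stood highest in pristane mice of week 14 (7.89 ± 0.888 SD), followed by pristane weeks 12 (6.15), 8 (6.01), 2 (5.72) and 4 (5.49), and then all untreated groups, from 4.38 at week 12 to 4.15 at week 2. Neighbours in this order differed by more than the larger of their SDs at 2 steps, from pristane week 14 to week 12 (1.74) and from pristane week 4 to untreated week 12 (1.11). Irf9 showed the same 2 kinds of step, 0.73 from pristane week 14 to week 12 and 0.75 from pristane week 4 to untreated week 8. Irf8 1416714_PM_at had 1 such step, 0.90 below pristane week 14. No neighbours in the order of Irf1, Irf5, Irf8 1448452_PM_at or either Stat2 probe set differed beyond the larger SD.

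Between untreated mice of weeks 0 and 14, 1 of the 8 probe sets passed. Irf8 1416714_PM_at was 4.40 to 4.81 (median 4.68) at week 0 and 4.92 to 5.96 at week 14, with all 5 mice of week 14 above all 7 of week 0. The log2 change was 0.67 (SE 0.162, adjusted p = 0.0225), and 8.78% of all probe sets rose. Irf9 differed by 0.53 (SE 0.198, adjusted p = 0.105), Irf5 by -0.38 (SE 0.133, adjusted p = 0.0870) and Irf7 by -0.06 (SE 0.128, adjusted p = 0.821). The second Irf8 probe set differed by -0.03 (SE 0.105, adjusted p = 0.919), so the 2 probe sets of the gene did not read the same change.

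The other genes of the pathway were counted over lists, each gene by its probe set of highest mean. Of all probe sets, 0.231%, 0.124%, 0.0866%, 0.0244% and 4.57% rose at weeks 2, 4, 8, 12 and 14, to set beside each count. Upstream of the members, none of 11 interferon ligand genes rose at any week, and 6 of them, Ifnb1, Ifna2, Ifna4, Ifna6, Ifna7 and Ifna11, lay at the lowest value of the array on all 14 arrays of week 14. These 6 were named for that after their values were seen, and with no spread at that value they could not pass at week 14. That none rose there therefore says nothing of these 6. Of the ligands listed, Ifna12, Ifna13, Ifna14, Ifne, Ifnk, Ifnl2 and Ifnl3 had no probe set of their own and were not measured. Of the 9 interferon receptors and Janus kinases, 3 rose at week 14 and none before: Ifngr1, a chain of the interferon gamma receptor, by 0.70 (SE 0.134, adjusted p = 0.0135), Ifnar2, a chain of the type I receptor, by 0.52 (SE 0.134, adjusted p = 0.0377), and the kinase Tyk2 by 0.52 (SE 0.105, adjusted p = 0.0175). Sensors and adaptors that activate Irf3, Irf5 and Irf7 numbered 15, of which 8 rose at week 14, 1 at week 2 and 2 at week 4. Ifih1, the cytosolic double-stranded RNA sensor MDA5, rose at weeks 2 (0.77, adjusted p = 0.00126), 4 (0.70, adjusted p = 0.0366) and 14 (1.99, adjusted p = 0.00326). Sting1, the adaptor for cytosolic DNA, and Tlr7, a receptor for single-stranded RNA, rose at week 14 by 2.28 (adjusted p = 0.0122) and 1.77 (adjusted p = 0.0192).

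Among the relatives of the members, 2 of 3 other Irf genes and 1 of 5 other Stat genes rose at week 14, beside 4.57% of all probe sets. No gene of these 2 lists rose earlier. Irf4, a factor of plasma cells and activated lymphocytes, changed by 2.49 (SE 0.531, adjusted p = 0.0206) and Irf2 by 0.31 (adjusted p = 0.0463), while Irf3, which is activated by phosphorylation of protein already present, had a change of -0.11 (adjusted p = 0.719). Stat3, which signals for interleukin 6, changed by 1.03 (adjusted p = 0.00696). Stat4, Stat5a, Stat5b and Stat6 had changes of 0.07, 0.27, -0.18 and 0.33, with adjusted p from 0.173 to 0.652. Of 10 inhibitors, Usp18, which blocks the type I receptor, was the 1 that rose at each of weeks 2, 4, 8 and 12, and 5 rose at week 14, among them Usp18 (3.33, adjusted p = 0.00116), the phosphatase Ptpn6 (1.63, adjusted p = 0.0103) and Socs3 (1.39, adjusted p = 0.0442).

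Downstream, the 15 type I interferon targets, genes that ISGF3 is known to induce, moved early. At weeks 2, 4, 8, 12 and 14, the numbers that rose were 9, 7, 9, 3 and 14, with median changes of 0.66, 0.92, 1.06, 1.40 and 2.39. The share of all probe sets that rose differed between these weeks too, at 0.231%, 0.124%, 0.0866%, 0.0244% and 4.57%. The largest at week 14 were Ifit1 (4.57, adjusted p = 3.63e-04), Rtp4 (3.96, adjusted p = 4.80e-04) and Oasl2 (3.71, adjusted p = 0.00122), and the 1 that did not pass was Mx2 (0.60, adjusted p = 0.302), named after its value was seen. The 13 targets of interferon gamma and Irf1 had 6 that rose at week 2, none at weeks 4, 8 and 12, and 11 at week 14, with median changes of 0.51, 0.53, -0.03, 1.02 and 2.04. Cxcl9, a T-cell chemokine, rose by 3.35 (adjusted p = 0.00884), Gbp2 by 2.51 (adjusted p = 0.0141) and Igtp, an immunity-related GTPase, by 2.40 (adjusted p = 0.0117), while Gbp4 and Ciita, also named after their values were seen, had changes of -0.05 and 0.06.

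Without untreated mouse 10, the week 12 counts went from 3 to 13 of 15 for the type I targets, from 0 to 10 of 13 for the interferon gamma and Irf1 targets, from 0 to 4 of 15 for the sensors and from 1 to 2 of 10 for the inhibitors. Over the whole array, the share of probe sets that rose also went up, from 0.0244% to 1.33%. The medians of the target lists moved less, from 1.40 to 1.55 and from 1.02 to 1.32. The effect at week 14 was larger than that at week 2 for 11 of 15 type I targets, 9 of 13 interferon gamma and Irf1 targets and 9 of 15 sensors. By that test the effect was larger for 5.77% of all probe sets. Against week 12 no gene of any list passed. Beside the members, the mean log2 level of the type I targets in pristane mice was 5.99, 5.95, 6.18, 6.45 and 7.44 from week 2 to week 14, against 4.83 to 5.14 in the untreated groups.

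**Figure D4:**
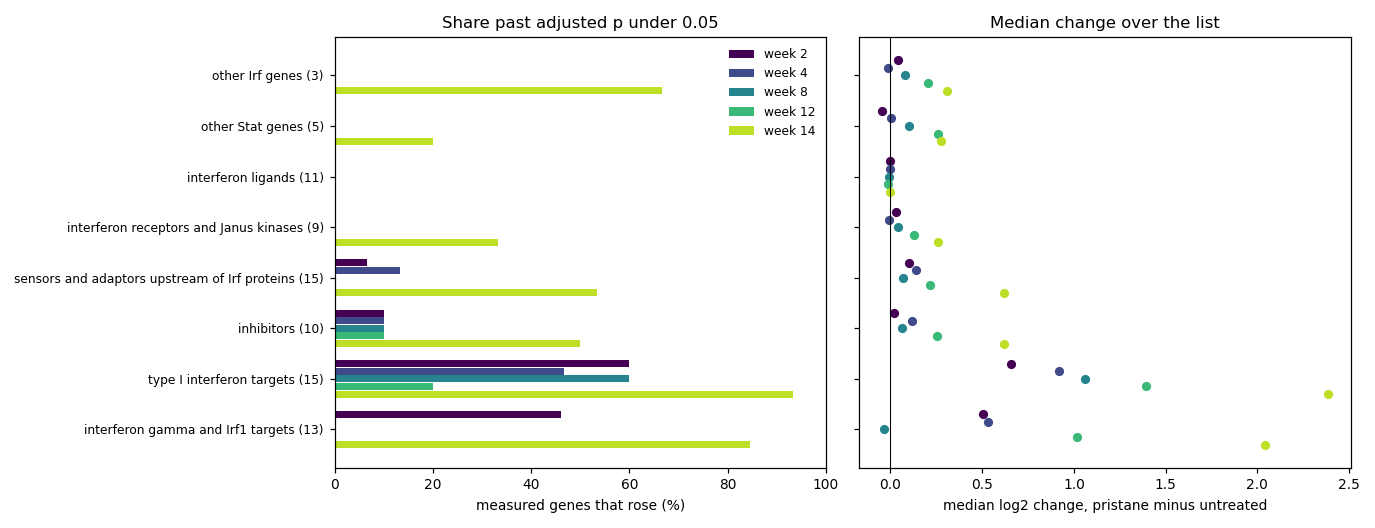
For 8 lists of pathway genes (number measured in parentheses), the percentage of genes that rose at each week (left, bars from 0) and the median log2 change, pristane minus untreated (right). Type I interferon targets have risen genes at each week, from 3 to 14 of 15, while receptors, other Irf genes and other Stat genes have them at week 14 alone. Of all probe sets, 0.0244% (week 12) to 4.57% (week 14) rose.

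Markers of other cells moved with the members. The mean log2 level of the 12 macrophage and monocyte markers was 4.78 in pristane and 4.60 in untreated mice at week 2, where 2 markers passed, C1qa (0.80, adjusted p = 0.0340) and C1qb (0.46, adjusted p = 0.0272), subunits of complement C1q. It was 7.38 and 5.08 at week 14, with ranges of 6.11 to 7.93 and 4.85 to 5.35, and 10 of 12 markers rose. The summed linear level of the 12 ran from 566 to 965 in pristane mice at week 2, against 478 to 911 in untreated mice, and from 2287 to 8305 at week 14, against 1030.0 to 1412. This sum overlapped over most of its range at week 2 and the mean in part (4.62 to 4.96 against 4.38 to 4.74). At week 14, 3 of 5 T-cell markers and 2 of 3 plasma-cell markers rose, and none of the 5 B-cell, 3 plasmacytoid dendritic cell, 4 conventional dendritic cell and 4 neutrophil markers passed. Beside these marker counts, 0.231% of all probe sets rose at week 2 and 4.57% at week 14. Of the B-cell markers, Cd79b changed by 1.39 (adjusted p = 0.0659), Cd79a by 0.85 (adjusted p = 0.118) and Ms4a1 by 0.78 (adjusted p = 0.0686). Pax5 and Blk changed by 0.07 and 0.05. Some markers, such as Xcr1 and Mpo, lay at the lowest value of the array in 8 of 9 pristane mice and could hardly pass. The part of these cells in the levels of the members was not tested, at week 2 or at week 14.

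Among the 9 pristane mice of week 14, some of the members and the macrophage markers varied together, and mice 1 and 2 were low in several. Irf5 passed with no other member and not with the markers. Irf7 was 6.39 and 6.85 in these 2 against 7.55 to 9.38 in the other 7, and Irf9 7.43 and 7.49 against 7.93 to 8.62. Since they formed a group apart, relations were also computed over the other 7 mice alone, and of 21 relations 6 passed by r over the 9 mice and 5 over the 7. Irf7 and Irf9 correlated at r = 0.956 over 9 mice (rho = 0.900, exact permutation p = 1.93e-04 and 0.00203, adjusted over 42 relations 0.00810 and 0.0170) and at r = 0.907 without the 2 mice farthest from the median of Irf7. Over the 7 mice their r was 0.872 (rho = 0.786, exact p = 0.00932 and 0.0480, adjusted over 21 relations 0.0442 and 0.112). Irf9 and Stat2 correlated at r = 0.861 over 9 mice (rho = 0.883, exact p = 0.00251 and 0.00308, adjusted 0.0240 and 0.0215), at 0.917 without the 2 farthest mice, and, over the 7, at 0.917 (rho = 0.857, exact p = 0.00278 and 0.0238, adjusted 0.0292 and 0.0833).

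With the macrophage markers the 9 mice fell into 2 clusters, so relations are given within the 7 mice, where 2 of 6 passed by r and none by rho. Stat2 (r = 0.886, rho = 0.964, exact p = 0.00179 and 0.00278, adjusted 0.0292 and 0.0583) and Irf8 (r = 0.937, rho = 0.893, exact p = 0.00456 and 0.0123, adjusted 0.0319 and 0.0646) passed by r. Irf9 (r = 0.757, rho = 0.821, exact p = 0.05 and 0.0341, adjusted 0.132 and 0.0896), Irf1 (r = 0.707, rho = 0.929, exact p = 0.0564 and 0.00675, adjusted 0.132 and 0.0646) and Irf7 (r = 0.572, rho = 0.607, exact p = 0.176 and 0.167, adjusted 0.308 and 0.250) did not pass. Irf5 had r = -0.163 (rho = -0.143, exact p = 0.704 and 0.783, adjusted 0.778 and 0.822). Over all 9 mice, across both clusters, the calls by r differed. The exact permutation p for r, adjusted over 42 relations, was 0.00961 for Irf1, 0.00961 for Irf9, 0.0254 for Irf7 and 0.0240 for Stat2, which all passed, and 0.271 for Irf8 and 0.366 for Irf5, which did not. By rho the adjusted exact p over the 9 mice was 0.00347 for Irf1 and Stat2, 0.0170 for Irf9, 0.0347 for Irf8, 0.0484 for Irf7 and 0.409 for Irf5. Leaving out mice 1 and 2 thus ended the calls by r of Irf1, Irf7 and Irf9 with the markers and brought that of Irf8, with only 7 mice in each test. At week 2 none of 21 relations among the 9 pristane mice passed the adjustment by r, 4 having an unadjusted exact p under 0.05. Irf7 with Stat2 had r = 0.774 and rho = 0.867 (exact p = 0.0115 and 0.00451, adjusted 0.0688 and 0.0271) and r = 0.715 without the 2 farthest mice.

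**Figure D5:**
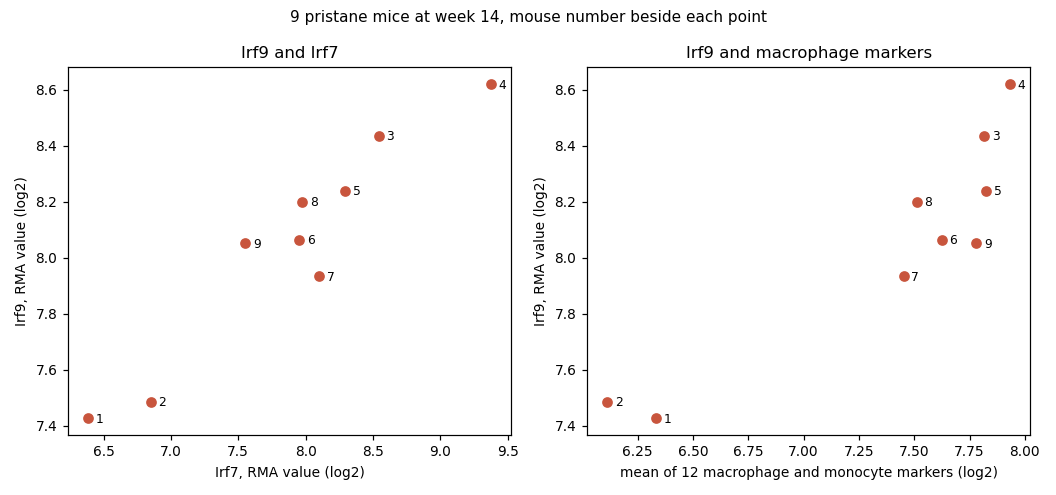
Log2 RMA value of Irf9 (vertical) in the 9 pristane mice of week 14 against Irf7 (left) and against the mean of 12 macrophage and monocyte markers (right), with the number of the mouse beside each point. Mice 1 and 2 are lowest on every axis, and they lie more than 1 log2 unit below the others in the markers.

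The genes most like each member over all 95 arrays were found by Pearson's r against the other 17096 genes, each array being 1 mouse and the r spanning all 11 groups. Irf7 was most like Rnf213 (r = 0.935), Oas1g (0.935) and Mx1 (0.926), and Irf9 was most like Rtp4 (0.961), Ifit1 (0.948) and Lgals3bp (0.947). Within groups, after taking the group means away, the r of these fell to 0.667, 0.637 and 0.563 for Irf7 and to 0.821, 0.760 and 0.806 for Irf9. Irf1 was most like H2-Eb1 (0.938), Gbp2 (0.935) and H2-DMa (0.935), with 0.911, 0.899 and 0.896 within groups. Stat2 was most like Rtp4 (0.851), Irf9 (0.848) and Parp14 (0.839), Irf8 like AW112010 (0.880), H2-DMb2 (0.879) and H2-DMa (0.877), and Irf5 like Mefv (0.685), Cd4 (0.659) and Rasa4 (0.652). Within groups these were 0.733, 0.694 and 0.695 for Stat2, 0.823, 0.798 and 0.814 for Irf8, and 0.694, 0.661 and 0.604 for Irf5. The r of Irf7 with its genes thus fell furthest when the group means were taken away.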

How the data were processed

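Kidney RNA was hybridised to HT MG-430 PM arrays of Affymetrix, and the authors normalized probe intensities with RMA, so the deposited values are log2. Of 45141 probe sets, 104 controls were left out and 45037 tested. Deposited log2 values stop at a floor of 2.21, which holds 18.6% of them and no value of the 8 probe sets described. Several of the 8 still repeated a value of their own over the 95 arrays, beside the Stat2 probe set described above. Irf5 read 5.56 on 20 arrays, Irf8 1448452_PM_at 4.78 on 15, Irf7 4.08 on 10 and Stat2 1421911_PM_at 5.30 on 8. For Irf7 that value was also the median of untreated mice at week 4. The part of such repeated values in the ranges, the SEs and the calls was not tested. The number of arrays limits the precision. Array medians ran from 4.22 to 4.57 and no arrays were identical (highest correlation 0.9978).

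Symbols came from the array annotation: 28898 probe sets had 1 symbol, 551 several and 15588 none. A listed gene was represented by its probe set of highest mean. The genes described and all lists were chosen with earlier results of these data known. The rule for naming took every member, all other Irf and Stat genes, from each list at most 3 genes that passed at week 14, by size of change, and the 3 genes most like each member.

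In R 4.3.3 with limma 3.58.1, pristane and untreated mice of each week were fitted alone (lmFit, eBayes), with Benjamini-Hochberg adjustment over all 45037 probe sets and a threshold of 0.05. Differences between weeks were interaction contrasts over 4 groups. The test was tried on simulated data. The p-values set a change against the spread between mice of the same group. The labels do not say how mice were housed or batched or from which experiment they came, so that spread and the changes may hold such differences. Exact permutation tests were two-sided. Promoter windows were searched in Python 3.11.15. Alternatives were median centring, quantile normalization, one fit of all groups, a trended and robust fit, untreated mice of every age as controls, leaving out probe sets under the 40th percentile of the mean, the replicate number as a block, adjusted p under 0.01, a fold over 2, a mean over the probe sets of a gene, adrenal markers as a covariate, and leaving out each mouse. Those that left out untreated mouse 10 of week 12 for the lists, untreated mice 3 and 9 of week 8 together, or pristane mice 1 and 2 of week 14 together were chosen after seeing the data.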

Additional observations from a re-analysis of the deposited data

Results flagged for a closer look

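Over 87 combinations of a probe set and a group of 5 to 10 mice, 18 values, from 13 mice, lay far from the rest of their group, in 17 of the combinations. The rule used would set apart about 1 in 20 groups of independent, normally distributed values. These combinations reuse the same mice over the probe sets, and some hold mostly 1 repeated value. The 17 can therefore not be read against that rate. Values are log2 levels, with that of the nearest mouse in parentheses. Untreated mouse 10 of week 12 stood out for 5 probe sets, Irf1 at 10.13 (7.55), Irf5 at 6.62 (5.58), Irf8 1448452_PM_at at 6.69 (4.78), Stat2 1421911_PM_at at 6.51 (5.31) and Stat2 1450403_PM_at at 3.98 (3.27). For Irf1, pristane mouse 4 of week 8 was at 7.76 (7.49) and untreated mouse 1 of week 4 at 7.67 (7.23). For Irf5, untreated mouse 5 of week 0 was at 6.34 (5.81). For Irf7, pristane mouse 1 of week 8 was low at 4.59 (5.87) and untreated mouse 5 of week 2 high at 4.38 (4.21). For Irf8 1448452_PM_at, pristane mouse 4 of week 4 was at 5.41 (5.10) and untreated mouse 7 of week 0 low at 4.44 (4.78). For Irf9, pristane mouse 9 of week 2 was at 7.91 (7.22) and untreated mouse 3 of week 0 at 6.50 (5.60). For Stat2 1450403_PM_at, where most mice share 1 value, pristane mouse 2 of week 8 was at 3.42 (3.30), untreated mouse 5 of week 2 at 3.27 (3.27), and untreated mice 7 and 4 of week 8 at 3.39 and 3.15 (3.27).

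The effect of pristane was larger at week 14 than at week 2 by the test of the difference itself for 5 probe sets, Irf1 (1.11), Irf7 (2.15), Irf8 1416714_PM_at (1.58), Irf9 (0.73) and Stat2 1421911_PM_at (0.82), all as differences of log2 changes, with adjusted p from 6.41e-04 to 0.0411.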

How the results depend on the processing

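The counts are of the 8 probe sets that passed, with the percentage of all tested probe sets that passed in either direction under the same setting in parentheses. At week 2 Irf7 and Irf9 passed under every alternative run, and Stat2 1421911_PM_at passed beside them with the filter on low means (3 calls, 0.681%) and with all untreated mice as controls (3 calls, 2.46%). At week 4 the count of 2 (0.138%) became 0 (0.0377%) at an adjusted p under 0.01. At week 8 the count of 1 (0.0866%) became 2 (0.181%) with the filter on low means, 2 (0.0955%) in a single fit, 3 (0.273%) with all untreated mice as controls and 2 without both untreated mice 3 and 9 (0.0933% risen). At week 12 the count of 0 (0.0244%) became 2 (0.0799%) with median centring, 1 (0.0377%) with quantile normalization, 2 (0.133%) with the filter, 3 (2.1%) in a single fit and 3 (4.92%) with all untreated mice. The week 14 count of 5 (8.31%) became 8 (20.7%) in a single fit, 8 (30.1%) with all untreated mice and 2 (0.799%) at an adjusted p under 0.01. The difference between weeks 14 and 2, with 5 (11.9%), fell to 3 (4.91%) at an adjusted p under 0.01 and to 3 (3.3%) with a fold over 2. That between weeks 14 and 12, with 0 (0%), gave 1 (4.55%) with the filter and 2 (11%) in a single fit. Untreated week 14 against week 0, with 1 (13.3%), gave 2 (39.1%) with centring, 3 (29%) with the filter, 2 (28.5%) in a single fit, 0 (4.64%) at an adjusted p under 0.01 and 0 (1.46%) with a fold over 2. The cause was not tested.

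Same-numbered mice were not paired by any label, and at no week did all pairs of deviations correlate above 0.1. With the replicate number as a block the count was 0 at weeks 4, 8 and 14 (0% in each), 2 at week 12 (Irf1 and Irf9, 0.504%), 3 for weeks 14 against 2 (6.97%) and 0 for untreated week 14 against week 0 (3.99%). The blocked change was 1.56 (SE 0.152, adjusted p = 0.0114) for Irf7 at week 2.

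Leaving out each mouse gave counts of 2 to 2 at week 2 (0.209% to 0.269%), 1 to 3 at week 4 (0.06% to 0.238%), 1 to 1 at week 8 (0.0377% to 0.0866%), 0 to 4 at week 12 (0.00666% to 1.35%), 3 to 6 at week 14 (1.87% to 16.2%), 3 to 6 for weeks 14 against 2 (8.96% to 17%), 0 to 1 for weeks 14 against 12 (0% to 7.15%) and 1 to 2 for untreated week 14 against week 0 (7.55% to 14.2%). The correlations that passed numbered 0 to 1 at week 2 (0 with all mice) and 2 to 7 at week 14 (6 with all mice). At week 4 the count fell to 1 without untreated mouse 3, 4 or 8. At week 12 it was 4 without untreated mouse 10 (1.35%) and 1 without pristane mouse 8 (0.06%). At week 14 it was 3 (Irf7, Irf9 and Stat2) without untreated mouse 3 (1.87%) or 4 (2.06%). The count for weeks 14 against 2 fell to 3 (Irf1, Irf7 and Irf8) without any of 14 mice: untreated 1, 2 or 3 and pristane 2, 3, 5 or 6 of week 2, and untreated 3 or 5 and pristane 3, 4, 5, 6 or 9 of week 14. For weeks 14 against 12, Irf7 passed without pristane mouse 1 or 2 of week 14. Untreated week 14 against week 0 gave 2 without mouse 3 or 5 of week 0. The correlations passing at week 14 fell to 2 without pristane mouse 2, 3 without mouse 3 and 2 without mouse 4, and at week 2 rose to 1 without mouse 1, 3 or 7.

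Log2 changes of 10 results near 0 turned sign, none past the threshold. With all untreated mice as controls they became -0.0325 for Irf5 and -0.106 for Irf1 at week 2, and 0.211 for Irf8 1416714_PM_at, 0.193 for Irf1 and -0.000601 for Stat2 1450403_PM_at at week 8. With the replicate block they became -0.0291 for Irf5 at week 2, 0.0658 for Irf8 1416714_PM_at at week 8 and 0.119 for Irf8 1448452_PM_at at week 12. In untreated mice of week 14 against week 0, centring gave 0.0482 for Irf7 and 0.0747 for Irf8 1448452_PM_at, and quantile normalization 0.0522 and 0.0146. Without 1 mouse, Irf5 ran from -0.0347 to 0.0648 at week 2 (below 0 without untreated mouse 6, 9 or 10 or pristane mouse 6) and from -0.00214 (without pristane mouse 8) to 0.157 at week 12. At week 8 Irf1 ran from -0.243 to 0.0131 (without untreated mouse 3), Irf8 1416714_PM_at from -0.204 to 0.0524 (without untreated mouse 9) and Irf8 1448452_PM_at from -0.0303 (without pristane mouse 4) to 0.0664. At week 12 the latter ran from -0.118 to 0.150 (without untreated mouse 10). For untreated week 14 against week 0, Irf7 ran from -0.123 to 0.0155 (without mouse 4 of week 14) and Irf8 1448452_PM_at from -0.0969 to 0.0687 (without mouse 5 of week 14).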
